A study of Homo sapiens with 6 samples.

Results

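The core replication-dependent histone genes encode the H2A, H2B, H3 and H4 proteins that package newly copied DNA. Here they are every row of the authors' deposited table whose symbol starts with HIST1H, HIST2H, HIST3H or HIST4H, without the linker histones, whose symbols start with HIST1H1. This rule gave 58 of 19830 genes, of which 15 were H2A, 20 were H2B, 11 were H3 and 12 were H4 genes. The genes were measured in PANC-1 cells, an established human cell line derived from a ductal adenocarcinoma of the pancreas. Cells were transfected with Lipofectamine 3000 and either 25 nM of SOX9 siRNA or 25 nM of control siRNA, and were pooled and harvested after 48 hours. There were 2 libraries per siRNA, made from total RNA with a stranded kit. The labels name 1 siRNA product for SOX9 and 1 for the control, and they do not say whether a group's libraries come from separate cultures. The p-values therefore measure only how these libraries differ, and that spread may be technical. SOX9 ChIP-seq samples, also part of the series, were not analysed here.

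The table used holds the authors' DESeq2 comparison and no values per library, so levels are given as the mean normalized count over all libraries and the depth of single libraries is unknown. The table does not name its numerator, and fold changes are read as SOX9 siRNA over control siRNA because SOX9 had a negative value. The authors' deposited table gave SOX9 a log2 fold change of -0.84 (standard error 0.26) and a DESeq2 adjusted p of 0.0643, so the target itself missed the threshold, and every direction below would turn if that reading were wrong. The labelled epithelial origin was checked against keratins of simple epithelia, and KRT8, KRT18 and KRT19 had mean normalized counts of 203350, 130452 and 99583 per the authors' deposited table. Of 6 epithelial markers EPCAM, an adhesion molecule, fell to 29.5% of control, and the other 5 were not called, at 1.04-fold to 1.54-fold, per the authors' deposited table. Of 6 leukocyte markers 2 were abundant enough to be tested: CD68, a lysosomal protein of many cell types, rose 1.79-fold, and CD14 stood at 2.32-fold with an adjusted p of 0.440 at a mean normalized count of 52.2, per the authors' deposited table. PTPRC and LYZ had mean normalized counts of 2.28 and 3.50 there. Of 6 fibroblast markers 3 were tested, and COL1A1, a collagen chain, rose 1.97-fold per the authors' deposited table, while 0 of 4 endothelial markers were tested. The part of these markers in the histone values was not tested.

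An octamer of core histones, with H3 and H4 at its centre and H2A and H2B dimers at its sides, wraps the DNA of each nucleosome. Cells need large amounts of new histone only while DNA is copied, so the genes are switched on in S phase by NPAT at histone locus bodies. Their short, intronless mRNAs end in a stem-loop bound by SLBP rather than in a poly(A) tail, and are degraded when replication stops. The genes lie in clusters with many near-identical copies: HIST1 on chromosome 6, HIST2 and HIST3 on chromosome 1 and HIST4 on chromosome 12. Reads can be shared between such copies. The sources used here do not say how the authors treated shared reads, so single values are uncertain.

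The promoters of these genes carry a small set of shared elements, shown here as a description. Their part in the fold changes was not tested. All 58 symbols were matched to the RefSeq gene table and 51 had a RefSeq promoter (GRCh38.p14). Each sequence runs 5′ to 3′ on the gene's strand over the 150 bases before its start. Capitals mark the TATA box letters TATAAA, the CCAAT box letters CCAAT and the octamer ATTTGCAT known from H2B promoters, on either strand. Shown are the tested gene of each type with the lowest fold change among those with a promoter sequence, and for contrast HIST1H2BI, an H2B gene close to no change, and HIST4H4, the H4 gene with the highest fold change among those tested.
HIST1H2BJ, chr6:27132796-27132945, minus strand: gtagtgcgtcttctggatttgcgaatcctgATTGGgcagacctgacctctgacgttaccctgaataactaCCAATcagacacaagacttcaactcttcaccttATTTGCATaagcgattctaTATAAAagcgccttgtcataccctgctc
HIST1H2BI, chr6:26272781-26272930, plus strand: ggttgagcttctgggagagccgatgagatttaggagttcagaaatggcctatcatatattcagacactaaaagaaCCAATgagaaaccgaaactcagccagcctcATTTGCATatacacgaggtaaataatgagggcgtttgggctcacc
HIST1H2AJ, chr6:27814778-27814927, minus strand: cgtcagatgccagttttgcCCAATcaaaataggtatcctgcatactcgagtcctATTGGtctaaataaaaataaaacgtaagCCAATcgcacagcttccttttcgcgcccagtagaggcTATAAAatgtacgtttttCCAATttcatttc
HIST1H3B, chr6:26032100-26032249, minus strand: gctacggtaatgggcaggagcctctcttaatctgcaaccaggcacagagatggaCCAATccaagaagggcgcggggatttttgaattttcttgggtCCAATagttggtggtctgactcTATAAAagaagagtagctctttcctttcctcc
HIST1H4L, chr6:27873535-27873684, minus strand: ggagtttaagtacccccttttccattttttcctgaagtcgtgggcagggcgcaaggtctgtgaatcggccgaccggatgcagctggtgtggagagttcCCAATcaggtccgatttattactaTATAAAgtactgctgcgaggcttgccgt
HIST4H4, chr12:14771132-14771281, minus strand: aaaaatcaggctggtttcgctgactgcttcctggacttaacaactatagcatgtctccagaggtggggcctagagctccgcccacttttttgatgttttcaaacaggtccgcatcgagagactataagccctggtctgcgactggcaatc

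In the 250 bases before the start, TATAAA was present in 34 of 51 core histone promoters (66.7%), against 11.1% of all 27305 RefSeq promoters. CCAAT was present in 44 of 51 (86.3%, against 33.0% of all promoters) and ATTTGCAT in 26 of 51 (51.0%, against 1.66%). Both strands were searched, and none of these strings contains another. H2A and H2B genes that face each other share most of the searched bases, so their matches are not separate observations. The octamer was found in 14 of 18 H2B and 11 of 14 H2A promoters, in 1 of 9 H3 promoters and in 0 of 10 H4 promoters. CCAAT was found in every H2A, H2B and H3 promoter searched and in 3 of 10 H4 promoters. A core sequence bound by SOX proteins, ATTGTT, added after the other motifs, was present in 5 of 51 core histone promoters (9.80%) and in 9.19% of all promoters. These are matches of letters, and binding was not measured in them.

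Core histone genes were lower after SOX9 siRNA. Of the 58 members, 53 had a mean count high enough for an adjusted p. Among them 20 fell and 0 rose at an adjusted p under 0.05 by DESeq2 per the authors' deposited table, where 0.939% of all 14063 tested genes fell and 0.868% rose. At an unadjusted p under 0.05 there were 38 lower and 0 higher members, against 6.15% lower and 4.98% higher of all tested genes. A negative fold change was found for 51 of 53 members and for 52.1% of all tested genes, and the median log2 fold change was -0.60, against -0.02 over all tested genes. The 20 genes that fell stood between 55.7% and 66.2% of control. They made up 15.2% of all genes that fell. Abundant genes in this table tended to lower fold changes, with a median of -0.07 in the most abundant of 4 equal groups, where 1.88% of genes fell and 30 of the 53 members lay. Centring each gene on the median of its abundance group left 11 of the 20 calls, with a members' median of -0.54, while the falls over all genes went from 132 to 99. The calls were also few under wider standard errors, with 1 left, and 0 members passed a test against a 1.5-fold change.

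**Figure D1:**
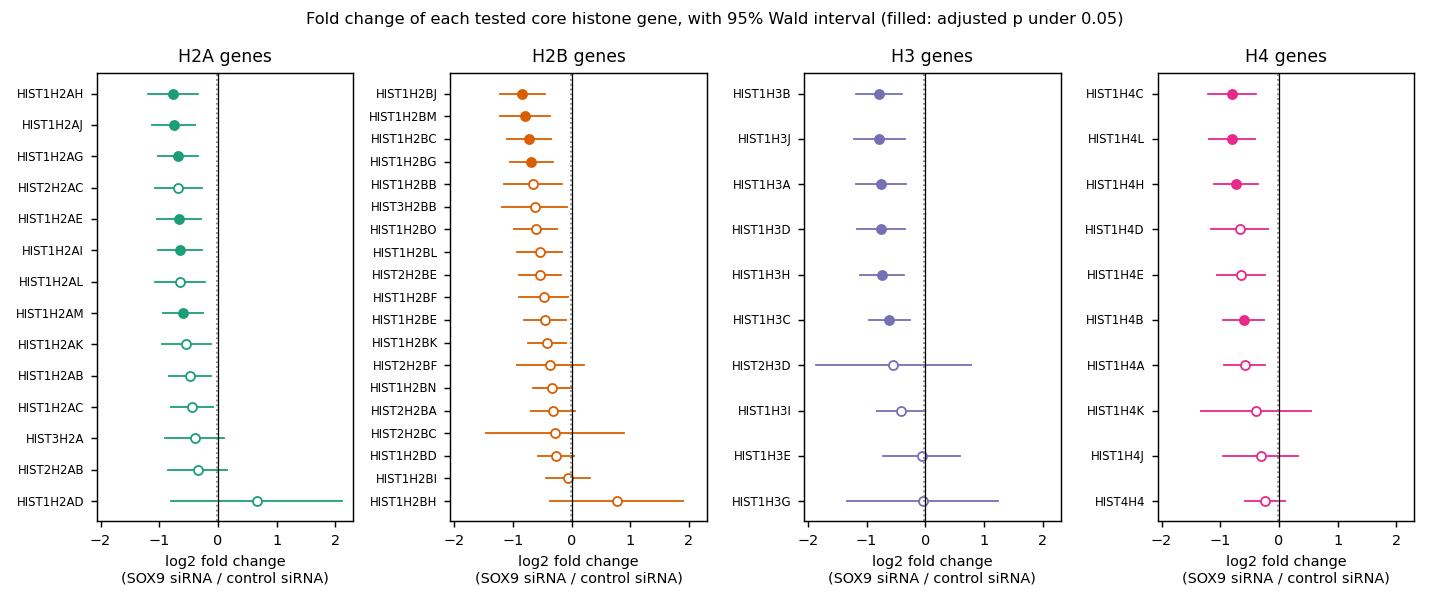
Log2 fold change (SOX9 siRNA over control siRNA) of the 53 tested core histone genes by type. Points are the authors' estimates, bars are 95% Wald intervals, filled points have an adjusted p under 0.05, and the dotted line is the median of all tested genes (-0.02). The 20 filled points lie between -0.84 and -0.60, and HIST1H2AD and HIST1H2BH are the points above zero.

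The members' own counts give the scale of this difference. Their mean normalized counts summed to 215914, which is 0.453% of the table's total. From each gene's mean count and fold change, the summed level was 261259 in control siRNA and 170568 in SOX9 siRNA, a ratio of 65.3%. By type the same ratio was 64.9% for H2A, 68.9% for H2B, 61.7% for H3 and 62.0% for H4. H2B genes held 37.9% of the summed count, H2A 26.4%, H4 18.1% and H3 17.6%. These group levels are derived from the authors' mean and ratio and have no spread of their own. In bulk RNA, fewer cells in S phase and less histone mRNA in each such cell cannot be told apart.

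**Figure D2:**
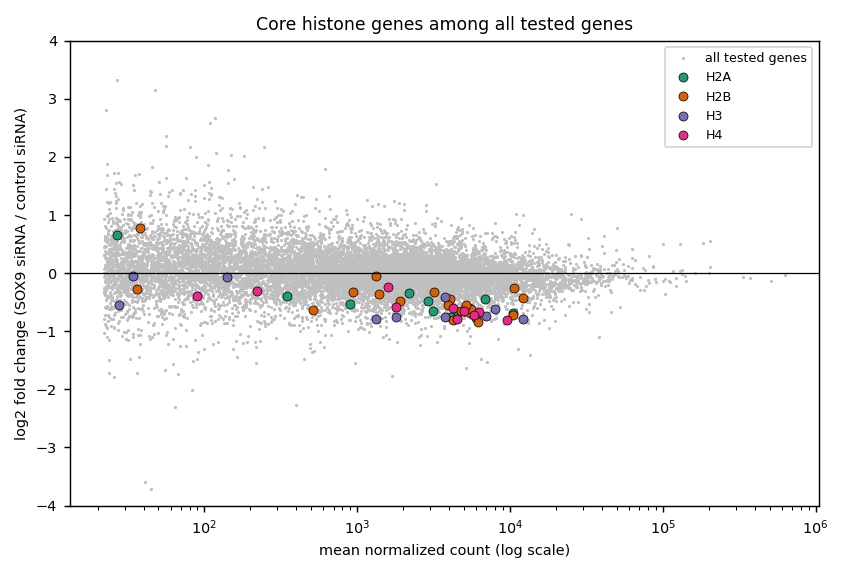
Mean normalized count (log scale) against log2 fold change for the 14063 tested genes (grey) and the 53 tested core histone genes (coloured by type). All 20 genes that fell have mean counts of 1323 or more, and both members with positive values have mean counts under 40.

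H2A genes, whose product pairs with H2B, comprised 14 tested members, of which 6 fell and 0 rose, with a median log2 fold change of -0.62. HIST1H2AG was the most abundant per length among H2A genes, at 21301 mean normalized counts per kb of its RefSeq span, and had a mean normalized count of 10501. Its level was 12957 in control siRNA and 8046 in SOX9 siRNA, a fall to 62.1% of control (95% interval 49.0% to 78.8%) with an adjusted p of 0.0106 by DESeq2 per the authors' deposited table. HIST1H2AH had the lowest H2A value, at 58.8% of control (43.9% to 78.8%), and HIST1H2AJ followed at 59.1% (45.7% to 76.5%), per the authors' deposited table. The other falls were those of HIST1H2AE, HIST1H2AI and HIST1H2AM, at 63.4%, 63.7% and 66.2% of control per the authors' deposited table.

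Other H2A genes had values in the same range without passing. HIST2H2AC stood at 62.7% of control with an adjusted p of 0.0541 and HIST1H2AL at 63.8% with 0.103, by DESeq2 per the authors' deposited table. HIST1H2AC, the most abundant H2A gene that was not called, had a level of 7927 in control siRNA and 5856 in SOX9 siRNA, with a log2 fold change of -0.44 (standard error 0.18) and an adjusted p of 0.259 per the authors' deposited table. HIST1H2AD was the H2A member with a positive value, 0.66, but its mean normalized count was 26.6 and its interval ran from -0.79 to 2.11 per the authors' deposited table.

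H2B was the type with the most members, and of 19 tested members 4 fell and 0 rose, at a median of -0.48. HIST1H2BJ fell furthest of all tested members by point estimate, from a level of 7881 to 4393. That is 55.7% of control (95% interval 42.8% to 72.6%), with an adjusted p of 0.00335 by DESeq2, rank 63 by p among all tested genes per the authors' deposited table. HIST1H2BM fell to 57.5% of control, HIST1H2BC to 60.4% and HIST1H2BG to 62.0%, with adjusted p-values of 0.0240, 0.0129 and 0.0217 by DESeq2 per the authors' deposited table. HIST1H2BO just missed the threshold, at 65.4% of control and an adjusted p of 0.0546 per the authors' deposited table.

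Several abundant H2B genes had smaller differences. HIST1H2BK, with the highest mean normalized count of all members at 12211, stood at 74.7% of control (59.5% to 93.8%) with an adjusted p of 0.224 per the authors' deposited table. HIST1H2BD, at a mean of 10662, stood at 83.3% (67.1% to 103.4%) with an adjusted p of 0.576 per the authors' deposited table. HIST1H2BI had levels of 1360 in control siRNA and 1310 in SOX9 siRNA, which is 96.3% of control (74.3% to 125.0%). Its standard error of 0.19 was close to the median of all tested members, 0.20, but does not include error from reads shared between copies. HIST1H2BC, HIST1H2BE, HIST1H2BF, HIST1H2BG and HIST1H2BI encode the same H2B protein, and their log2 fold changes were -0.73, -0.45, -0.48, -0.69 and -0.05 per the authors' deposited table. The differences among these copies were not tested, because errors shared through the libraries and through shared reads are unknown.

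H3 genes of the HIST1 cluster encode the replicative H3.1 protein, and 6 of the 10 tested H3 members fell while 0 rose, with a median of -0.67. HIST1H3B, the most abundant per length of all members with a RefSeq span up to 1 kb, at 23764 mean normalized counts per kb, went from a level of 15380 to 8906. It fell to 57.9% of control (44.4% to 75.6%) with an adjusted p of 0.00848 by DESeq2 per the authors' deposited table. HIST1H3J fell to 58.1%, HIST1H3A to 59.1%, HIST1H3D to 59.1%, HIST1H3H to 59.9% and HIST1H3C to 65.5% of control, with adjusted p-values from 0.0125 to 0.0403 by DESeq2 per the authors' deposited table. All H3 genes with a mean count of at least 1000 fell except HIST1H3I, which stood at 75.0% of control (56.2% to 99.97%) with an adjusted p of 0.448 per the authors' deposited table. HIST1H3E, HIST1H3G and HIST2H3D had mean normalized counts of 140.7, 34.3 and 27.7 per the authors' deposited table. Their log2 fold changes there were -0.06, -0.05 and -0.55, with standard errors of 0.34 to 0.67, and the intervals of all 3 hold both zero and the H3 median.

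H4 genes encode a single protein from many copies, and 4 of the 10 tested members fell while 0 rose, with a median of -0.62. HIST1H4C went from a level of 12203 to 6987, a fall to 57.3% of control (43.1% to 76.0%) with an adjusted p of 0.0125 by DESeq2 per the authors' deposited table. HIST1H4L fell to 57.6%, HIST1H4H to 60.4% and HIST1H4B to 65.9% of control, with adjusted p-values of 0.00876, 0.0166 and 0.0403 by DESeq2 per the authors' deposited table. HIST1H4D, HIST1H4E and HIST1H4A stood at 62.9%, 63.9% and 66.8% of control but had adjusted p-values of 0.173, 0.0733 and 0.0596 per the authors' deposited table. HIST4H4, the lone H4 gene on chromosome 12, stood at 84.7% of control (66.8% to 107.3%) with an adjusted p of 0.684 per the authors' deposited table. HIST1H4J and HIST1H4K had mean normalized counts of 219.4 and 89.2 and intervals that reached above zero per the authors' deposited table.

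The 95% intervals of 51 of the 53 tested members held their weighted mean log2 fold change of -0.56. That mean comes from these same values, and a few 95% intervals would miss even a value common to all members. Outside lay HIST1H2BI, from -0.43 to 0.32, and HIST1H2BH, from -0.37 to 1.91 at a mean normalized count of 38.0, per the authors' deposited table. Among the 41 members with a mean count of at least 1000, 20 fell and the values ran from -0.84 to -0.05 with a median of -0.65. At that level 1.37% of all tested genes fell. Among the 12 tested members with lower mean counts 0 fell, and at an unadjusted p under 0.05 HIST1H2AK and HIST3H2BB were lower, at 68.8% and 64.5% of control per the authors' deposited table.

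H2A and H2B genes often lie head to head and are transcribed away from a shared promoter. Pairs were sought among the 51 members with a RefSeq promoter, so members without one, such as HIST1H2AH, could not be paired. Their starts gave 11 such pairs, with 193 to 247 bases between the starts, and in 10 pairs both genes were tested. Both genes had negative values in 9 of the 10 pairs. In 3 pairs both genes fell: HIST1H2AE with HIST1H2BG, HIST1H2AG with HIST1H2BJ, and HIST1H2AJ with HIST1H2BM. In 3 further pairs 1 of the genes fell, and in 4 pairs neither did. HIST1H2AJ and HIST1H2BM had log2 fold changes of -0.76 and -0.80, HIST1H2AM and HIST1H2BO of -0.60 and -0.61, and HIST1H2AE and HIST1H2BG of -0.66 and -0.69 per the authors' deposited table. Partners differed by a median of 0.14 on the log2 scale, which was not compared with genes that are not partners. HIST1H2AC and HIST1H2BC, at -0.44 and -0.73 per the authors' deposited table, were further apart. The widest gap, 1.13, was between HIST1H2AD and HIST1H2BF and rests on the low count of HIST1H2AD. Across the 10 pairs Pearson's r between the partners' values was 0.38, as a description of genes measured in the same libraries.

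**Figure D3:**
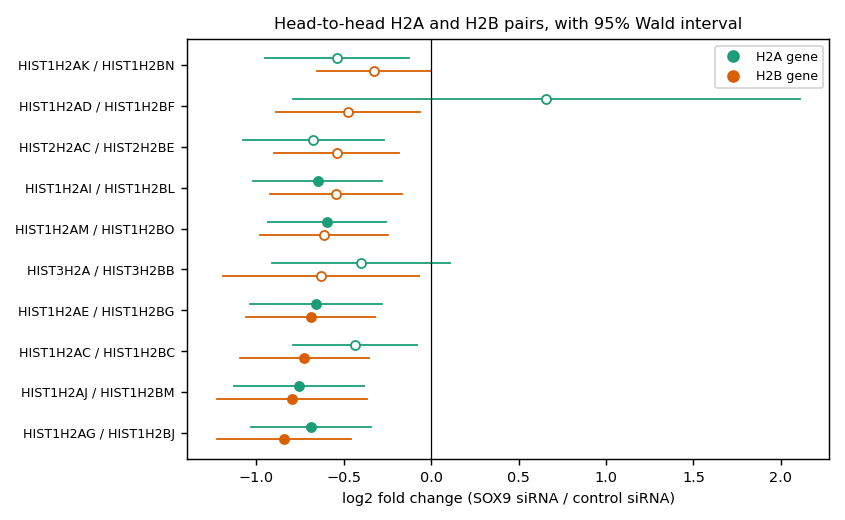
Log2 fold changes (SOX9 siRNA over control siRNA) of the 10 head-to-head pairs with both genes tested. Each row is a pair, bars are 95% Wald intervals and filled points have an adjusted p under 0.05. In every pair the partners' intervals overlap, and 3 pairs have both points filled.

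All 20 genes that fell lay in the HIST1 cluster, which held 43 of the 53 tested members and 92.2% of the summed count. Its median log2 fold change was -0.61. Genes of HIST2 had a median of -0.36 over 7 tested members, with 0 called and 2 lower at an unadjusted p under 0.05 by DESeq2, HIST2H2AC and HIST2H2BE. Of these 7, HIST2H2BA and HIST2H2BC are pseudogenes and had the highest values of the cluster, -0.32 and -0.28, per the authors' deposited table. HIST2H2BE stood at 68.7% of control with an adjusted p of 0.108 per the authors' deposited table. The HIST3 pair HIST3H2A and HIST3H2BB had values of -0.40 and -0.63 per the authors' deposited table. Neither HIST3 gene was called. Clusters were not tested against each other, and HIST2 has fewer abundant members, with 4 at a mean count of at least 1000 against 36 in HIST1. Among members at that level the medians were -0.45 in HIST2 and -0.65 in HIST1.

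Falls were spread along HIST1. Gaps of more than 300 kb split its members into 3 groups in chromosomal order. In the first, 10 of 24 tested members fell with a median of -0.61. In the second, which runs from HIST1H2BJ to HIST1H2AH, 3 of 4 fell with a median of -0.73, HIST1H2BK being the member that was not called. In the third, 7 of 15 fell with a median of -0.61. Genes side by side differed in places: HIST1H2BI, at -0.05, is followed by HIST1H4H, at -0.73, per the authors' deposited table.

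**Figure D4:**
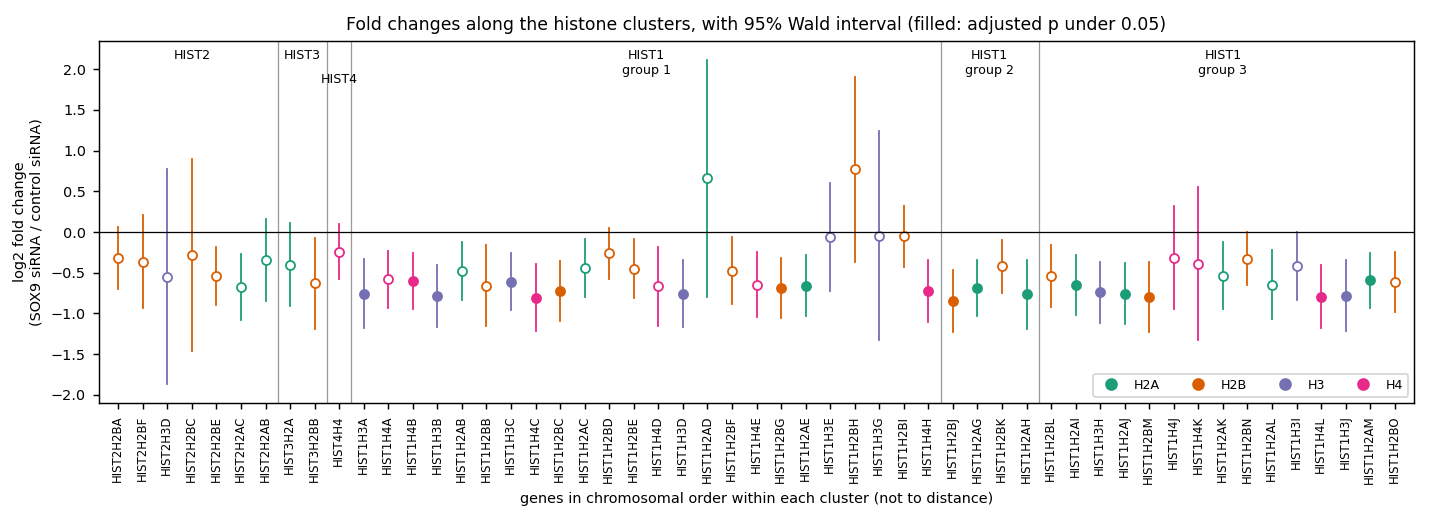
Log2 fold change (SOX9 siRNA over control siRNA) of the 53 tested members in chromosomal order, spaced evenly, with vertical lines between clusters and between the 3 HIST1 groups. Bars are 95% Wald intervals and filled points have an adjusted p under 0.05. Filled points occur in each of the 3 HIST1 groups and in none of HIST2, HIST3 and HIST4.

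Some replication-dependent histone genes are known to give longer, polyadenylated transcripts as well, and a few members have a RefSeq gene model that is longer than a stem-loop mRNA. The 8 members with a RefSeq span over 1 kb had a median log2 fold change of -0.39, and 2 of them fell, HIST1H2BC and HIST1H3D. The 45 tested members with shorter spans had a median of -0.61, and 18 of them fell. Their summed levels were 71.2% and 63.8% of control. Except for HIST1H3D and HIST1H3E, the 8 longer members are H2B genes, the type with the highest median, -0.48. They include the pseudogene HIST2H2BA, and HIST1H3E had a mean normalized count of 140.7. Span can therefore not be told apart from type or level here. The split by span was made after the values were seen and was not tested.

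Promoter letters were set beside the fold changes of the 46 tested members with a promoter sequence. Members with TATAAA had a median of -0.61, with 14 of 31 lower. Members without it had a median of -0.48, with 3 of 15 lower. By type, the H2A, H2B and H3 medians were lower with TATAAA, but the H4 median was -0.50 with it and -0.69 without it. Members with and without a motif were not matched for mean count, and no member with a mean count under 1000 fell. For the octamer the medians were -0.60 with it and -0.58 without it, and for CCAAT -0.60 and -0.60. For the SOX core they were -0.66 with it, where 3 of 5 fell, and -0.60 without it, where 14 of 41 fell. Those 3 include HIST1H2AE and HIST1H2BG, a head-to-head pair with 232 bases between the starts, so their matches may be the same site. No test of these differences was made. As the printed sequences show, HIST1H2BJ and HIST1H2BI both carry the octamer and CCAAT before the start, while TATAAA is present in HIST1H2BJ and not in the bases searched for HIST1H2BI.

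Members without an adjusted p were HIST1H2AA, HIST1H2BA, HIST1H4F, HIST1H4I and HIST3H3, with mean normalized counts from 0.772 to 19.0. HIST1H2AA, HIST1H2BA and HIST3H3 encode histones of the testis. HIST1H4I had the highest count of these, 19.0, and a log2 fold change of 1.32 with an interval from -0.26 to 2.90 per the authors' deposited table. The 2 pseudogenes among the members, HIST2H2BA and HIST2H2BC, had values of -0.32 and -0.28 and were not called per the authors' deposited table.

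Other genes of the chromatin and replication programme were read from lists. Of the linker histones, which bind the DNA between nucleosomes, 4 of 6 tested genes fell and 0 rose. The shares over all tested genes were 0.939% and 0.868%. HIST1H1B, HIST1H1C, HIST1H1D and HIST1H1E fell to between 56.2% and 65.0% of control, and H1F0, a linker histone made outside S phase, had a log2 fold change of 0.10 per the authors' deposited table. Replication-independent variants had 0 calls among 9 and a median of -0.32, with 3 lower and 1 higher at an unadjusted p under 0.05 by DESeq2, against 6.15% lower and 4.98% higher of all tested genes. H3F3B, which encodes H3.3, had a log2 fold change of -0.14 and H2AFZ, which encodes H2A.Z, of -0.49, with adjusted p-values of 0.869 and 0.160 per the authors' deposited table.

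S phase replication genes had a median of -0.37, with 38 of 41 negative, against 52.1% of all tested genes. They had 0 falls and 1 rise, that of GINS1, at 1.69-fold per the authors' deposited table. At an unadjusted p under 0.05 by DESeq2, 7 were lower, a threshold that 6.15% of all tested genes passed as lower. Their median standard error was 0.25, against 0.20 for the tested core histone members, so a fall of the same size is called less readily. RRM2, a subunit of ribonucleotide reductase, stood at 75.3% of control (adjusted p 0.653) per the authors' deposited table. Factors of histone transcription and mRNA processing had a median of -0.16, with 0 calls among 18 and 4 lower at an unadjusted p under 0.05 by DESeq2, beside the same 6.15%. NPAT, which drives histone transcription, had a value of -0.17 and the stem-loop binding protein SLBP of -0.43, with adjusted p-values of 0.863 and 0.492 per the authors' deposited table. CCNE1, the cyclin that activates NPAT through CDK2, had a value of -0.86 with an adjusted p of 0.194 per the authors' deposited table. Histone chaperones had a median of -0.25 and 1 fall among 20, that of RBBP4, a histone-binding subunit of chromatin assembly factor 1, at 61.7% of control per the authors' deposited table. At an unadjusted p under 0.05 by DESeq2, 5 of the 20 chaperones were lower and 0 higher, beside the same 6.15% lower. NPAT, SLBP, CCNE1 and H2AFZ were named after their values were seen.

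Values of RNA classes that share a feature with histone mRNAs are given beside this. Other RNAs without a poly(A) tail had a median of -0.16, with 140 of 188 tested genes negative, against 52.1% of all tested genes. Among the 188 there were 0 calls, with 3 lower and 3 higher at an unadjusted p under 0.05 by DESeq2. Of all tested genes, 6.15% and 4.98% were lower and higher at that threshold. These RNAs were measured less precisely than the histone genes, with a median mean count of 85.6 and a median standard error of 0.42, against 4053 and 0.20 for the tested members. Short genes outside the histones, with a RefSeq span of at most 2 kb, had a median of 0.01 with 1 fall and 4 rises among 597. Over all tested genes 0.939% fell and 0.868% rose. The 116 short genes with a mean count of at least 1000 had a median of 0.05, with 0 falls and 1 rise. The part of RNA recovery in the members' values was not tested.

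**Figure D5:**
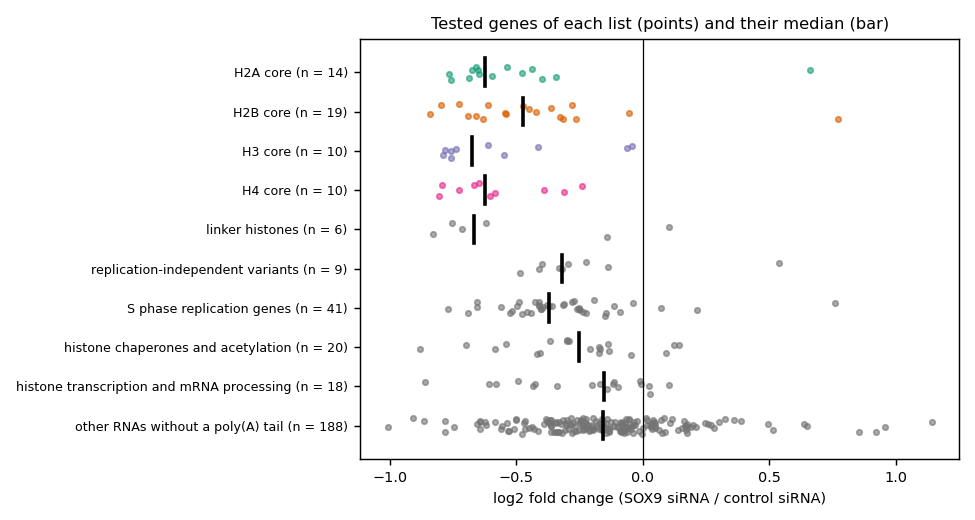
Log2 fold change (SOX9 siRNA over control siRNA) of each tested gene in the 4 core histone types (coloured) and in 6 comparison lists (grey), with bars at the medians. Points are spread vertically at random within a row. The medians of the core types lie between -0.67 and -0.48, and those of the 5 lists drawn below the linker histones lie between -0.37 and -0.16.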

How the data were processed

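RNA libraries of PANC-1 cells, 2 per siRNA, were compared by the authors. Tools named in the submitters' processing notes are DESeq2 1.18.1, HISAT2 2.0.5 and featureCounts, with no settings given; the notes also list hg19 and mm10, without saying what each was used for. Per the file headers, the deposited columns are the mean normalized count, a signal averaged over size-factor-scaled libraries, the fold change and its standard error as log2 values, the Wald statistic as a score, and the p-value and adjusted p-value. The handling of strand and of shared reads in counting is not stated in those notes.

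Genes with a deposited adjusted p, 14063 of 19830, are called tested, and a call is an adjusted p under 0.05 over all of them. Intervals are 95% Wald intervals. Group levels were derived from the mean count and fold change, assuming equal weight of both groups. Ratios to control are fold values computed from the deposited log2 values. Symbols were matched to RefSeq (GRCh38.p14) for names, order, strand and span. As the builds may differ, coordinates are given only for RefSeq promoters. The steps were run with Python 3.11.15, pandas 2.3.3 and scipy 1.17.1. On simulated data only the Wald test, the adjustment of p-values and the centring were tested. Genes were drawn there independently with the deposited standard errors.

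The members and lists were chosen with earlier results of these data known. In each type, every called member, the most abundant member not called and the lowest and highest fold changes are named. From the lists, called members and the most abundant member not called could be named. The lists were linker histones, replication-independent variants, histone transcription and mRNA processing factors, histone chaperones, S phase replication genes, RNAs without a poly(A) tail, short genes, and markers of epithelial, leukocyte, endothelial and fibroblast cells. Alternatives were other thresholds, count minimums, centring, wider standard errors, a 1.5-fold test, a weighted mean in place of the median and other sets of members. Protein sequences were not used here.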

Additional observations from a re-analysis of the deposited data

How the results depend on the processing

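The count of 20 members lower and 0 higher stayed within 1.5 times under 6 alternatives: adjusted p under 0.1 (24), adjustment over every gene (15), mean count of at least 100 (22) or 50 (20), centring on all tested genes (20) and leaving out pseudogenes (20). It was 4 at an adjusted p under 0.01, 11 after centring within 4 equal groups by mean count, 1 with standard errors widened by 1.13 and 0 against a 1.5-fold change, where 0 passed at an unadjusted p under 0.05 in the Wald test. All genes called lower numbered 49, 99, 40 and 0 under the same settings, against 132. The called members under each of the first 3 of these settings were among the 20. No member was called higher under any alternative run. Only the centrings altered the fold changes of single members, and under these no tested member changed sign. Leaving out the pseudogenes, which were not called, could not alter the count of 20 because the adjusted p-values were kept. The median log2 fold change, with a mean weighted by inverse variance among its alternatives, ranged from -0.61 to -0.54 for the core histones. It ranged from -0.65 to -0.56 for H2A and from -0.54 to -0.44 for H2B. For H3 the range was -0.75 to -0.65, and for H4 it was -0.65 to -0.56.

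No paired analysis was possible because the table has no values per library. For the same reason leaving out a replicate, another count test and another filter on low counts were not run. Counting identical proteins once was not run without protein sequences. The depth of single libraries is unknown, and standard errors of 0.16 to 0.74 limit the calls.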
